A study of Drosophila melanogaster with 4 samples.

Results

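The cell death gene cluster of Drosophila melanogaster was examined as an interval of arm 3L, from 18.15 to 18.42 Mb on FlyBase release 5, which was laid out to hold hid, grim, skl and rpr with the DNA between them. A peak was taken as a member when its midpoint lay in this 270 kb interval. This gave 5 of the 539 peaks that the authors listed on 3L, and 5 of 2949 in the whole list. Positions alone chose the members, and neither their score nor their width was used.

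The list comes from a chromatin immunoprecipitation sequencing study of Abd-B, the posterior Hox transcription factor, in wandering larvae of the last larval stage (L3). The larvae bore the genotype w; PBac{y[+]-attP-3B}VK00037 and, as strain Abd-B-GFP, a transgene in which GFP takes the place of the stop codon of the Abd-B genomic coding region. For the 2 ChIP libraries, the tagged protein was pulled down with the rabbit polyclonal antibody GFP ab290, and the 2 input libraries hold DNA of the same strain with no antibody named. All 4 titles carry the term vMock, no tissue and no sex is given for the larvae, and the collection protocol speaks of another stock, y; bw cn sp. The list has 1 set of positions and scores for the series and nothing per library. Values below therefore carry no error over replicates, the sequencing depth behind them cannot be told, and a stretch without a peak means that no peak was listed there, not that the protein was absent.

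The 4 genes are the classic triggers of programmed cell death in the fly. The proteins of hid (head involution defective), grim, rpr (reaper) and skl (sickle) bind the inhibitor of apoptosis proteins through a short motif at their N-terminus, which frees caspases to act. They are switched on cell by cell, through long stretches of regulatory DNA that lie between the genes, and Hox proteins are among the known inputs. In embryos, Abd-B is known to act on rpr at posterior segment boundaries, and Hox proteins set which neural stem cells of the abdomen die.

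All 4 members were found in a RefSeq gene table on release 6, which was used for names and neighbours alone because its build is not that of the peaks. Read in increasing coordinate, the order was hid, grim, rpr, skl. Between them the table lists 13 further genes, of which 4 code for proteins, 8 are long noncoding RNAs and 1 is an antisense RNA. The 4 protein-coding genes, CG7320, CheA75a, CG5103 and CG13700, all lie between hid and grim. Between grim and rpr are 3 noncoding genes, lncRNA:CR45975, asRNA:CR45974 and lncRNA:CR46353, and between rpr and skl is 1, lncRNA:CR46215. CG13699 precedes hid and lncRNA:CR43280 follows skl. Since gene positions on release 5 were not used here, no peak was assigned to a gene, and it was not checked that each gene lies whole within the interval. In particular skl, the last in order, may lie at or past the right edge, so the count with that edge moved outwards is also given.

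Peaks were listed only toward the lower-coordinate end of the interval, the side on which hid is the first of the 4 genes. Of 3 sections of 90 kb, the first held all 5 and the other two held 0. The first peak, at 3L:18166391-18166595, began 16.4 kb inside the left edge. With a score of 7.88 it was the weakest member, and with 205 bp also the narrowest. Only 13 of the 539 peaks of 3L had a lower score.

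The next 3 peaks stood close together. The peak at 3L:18177978-18178201 had a score of 11.15 and a width of 224 bp. After a gap of 5.72 kb came the peak at 3L:18183921-18184209, with a score of 15.24 and a width of 289 bp. A further 3.77 kb on lay the peak at 3L:18187984-18188447, with a score of 11.15, equal to that of the first of these 3, but a width of 464 bp. The first 4 peaks thus spanned 22.1 kb, which is 8.17% of the interval. As the closest of them were 3.77 kb apart, joining peaks under 1 kb apart could not merge any.

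The last peak was the strongest and stood alone. It lay at 3L:18227362-18227843, 38.9 kb beyond the fourth, with a score of 25.29 and a width of 482 bp, the widest of the 5. On 3L, 79 peaks had a higher score, and in the whole list it ranked 615 of 2949. Of the 5, it alone belonged to the 737 peaks of highest score, a share of 20% against 18.7% for the rest of 3L. It and the peak at 15.24 were the 2 members that belonged to the 1474 of highest score. That share was 40%, against 44.4% for the rest of 3L.

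**Figure D1:**
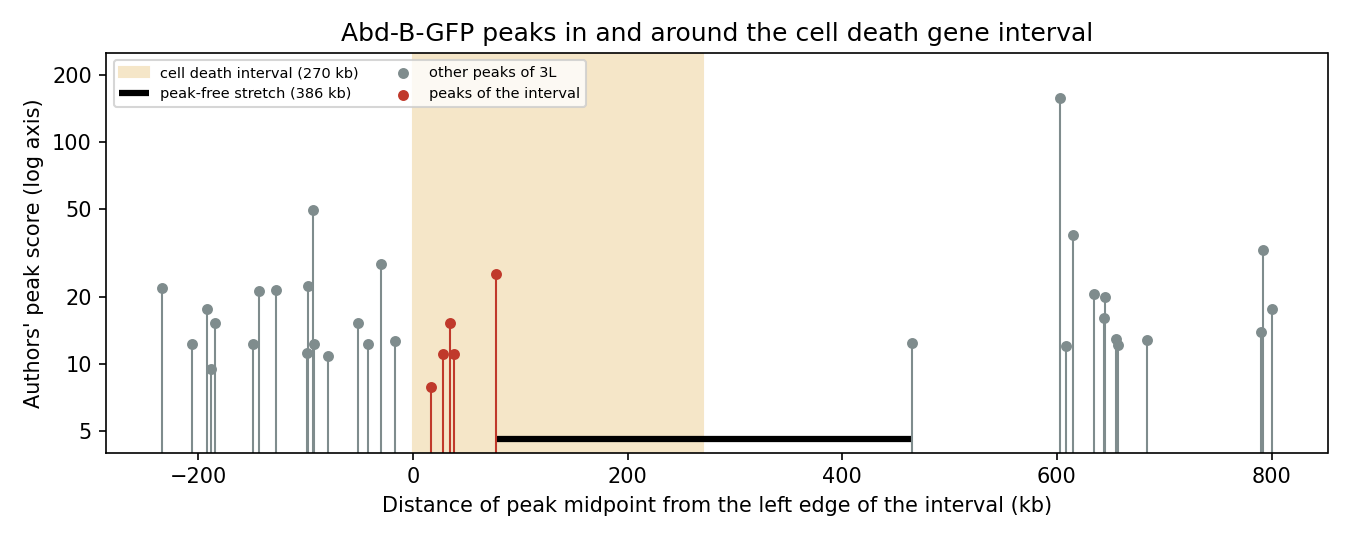
Peaks of 3L from 270 kb before to 810 kb after the left edge of the interval: the x axis is the distance of the midpoint from that edge in kb, the y axis the authors' peak score on a log axis, and the shaded band the interval. The 5 peaks of the interval (red) have scores from 7.88 to 25.29 and lie in its first 90 kb, and the black bar marks the peak-free stretch of 386 kb that follows the last of them.

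From the end of the last peak to the right edge, 192 kb or 71.2% of the interval held no peak. The stretch did not stop at the edge. It ran from 18227844 to 18614273, 386 kb in all, and so for 194 kb past the interval. The count of 5 was therefore the same with the right edge moved outwards by 30 kb. It was also the same with both edges moved outwards or inwards by 10 kb, since at the left edge the nearest midpoints lay 16.5 kb inside and, at -17.0 kb, outside it. At the mean density of 3L, a stretch of this length would hold 8.52 peaks. That number gives a scale only, since a stretch between neighbouring peaks is empty by definition.

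Among the 538 stretches between neighbouring peaks of 3L, this one ranked 6 in length. The median stretch was 13.9 kb, so it was 27.9 times as long as the median. The stretches that were longer were 994, 516, 480, 420 and 401 kb, of which the longest pair lay at the far end of the arm, from 22941950 onward. Together, stretches of 386 kb or more made up 13.1% of the extent of 3L. Over the arms 2L, 2R, 3L, 3R and X it ranked 22 of 2631. Long peak-free stretches were thus a recurring feature of the list, with 26 above 200 kb on 3L alone.

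Beyond the stretch, the next peak on the right lay at 3L:18614274-18614979, with a score of 12.4. A further 137 kb on came the strongest peak of 3L, at 3L:18752114-18752836 with a score of 156. It lies 332 kb past the right edge and is no member. On the left, the nearest peak outside was at 3L:18132879-18133153, with a score of 12.65, and 33.2 kb separated it from the first member.

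In peak number, the interval was an ordinary window of its arm. With 90 windows of 270 kb laid end to end outwards from it, 44 held fewer peaks, 37 held more, and 8 others also held 5. The median window held 5 peaks, with quartiles at 2 and 8 and a range from 0 to 30, and 8 windows held none. Several of these empty windows lay in the stretches of 994 and 516 kb at the far end of the arm. They count among the 44, and those stretches also lower the mean density of 3L. As a density, 18.5 peaks per Mb in the interval stood beside 22.0 peaks per Mb over the 24.5 Mb of 3L up to its last peak, a ratio of 0.840. At the density of 3L the interval would hold 5.95 peaks.

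**Figure D2:**
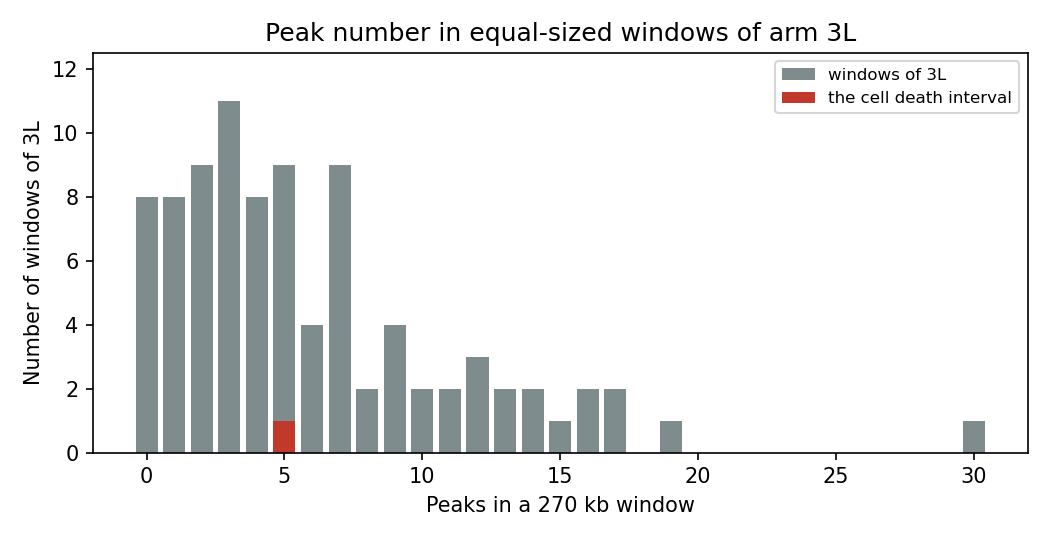
Number of 270 kb windows of 3L (y axis) that held each number of peaks (x axis). The cell death interval, in red, is 1 of 9 windows with 5 peaks, which is also the median over the 90 windows.

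The windows on either side differed from it and from each other. The window before the interval held 17 peaks, and only 2 of the 90 windows held more. The one before that held 6. The window after the interval held 1 peak, and the one after that 12. Listed peaks were thus frequent in the window directly before the interval. From the last peak of the interval to the end of the window after it, the list has 1.

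The peaks of the interval covered 1664 bases, or 0.616% of it, against 0.895% of 3L and a median of 0.609% over the windows. Their scores summed to 70.7, against a median of 71.5 over the windows. The strongest peak of the interval, at 25.29, stood near the middle too. Of the 82 windows with a peak, 39 had a higher top score and 42 a lower one.

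The placement within the window was less even than in most windows of like number. Of the 8 other windows with 5 peaks, 1 had all of them in 1 of its 3 sections of 90 kb, 6 had them in 2 sections and 1 in all 3. Their longest peak-free stretch inside the window ran from 109 to 233 kb, with a median of 131 kb, and 1 of them exceeded the 192 kb of the interval. Over all 90 windows the median was 131 kb, and 19 windows had a longer one, 8 of which held no peak at all. Of the 46 windows with 5 or more peaks, 37 held more than 5 and so were not of like number. Among all 46, 4, the interval included, had every peak in 1 section. No test was made of this, since it was looked at after the positions were known.

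**Figure D3:**
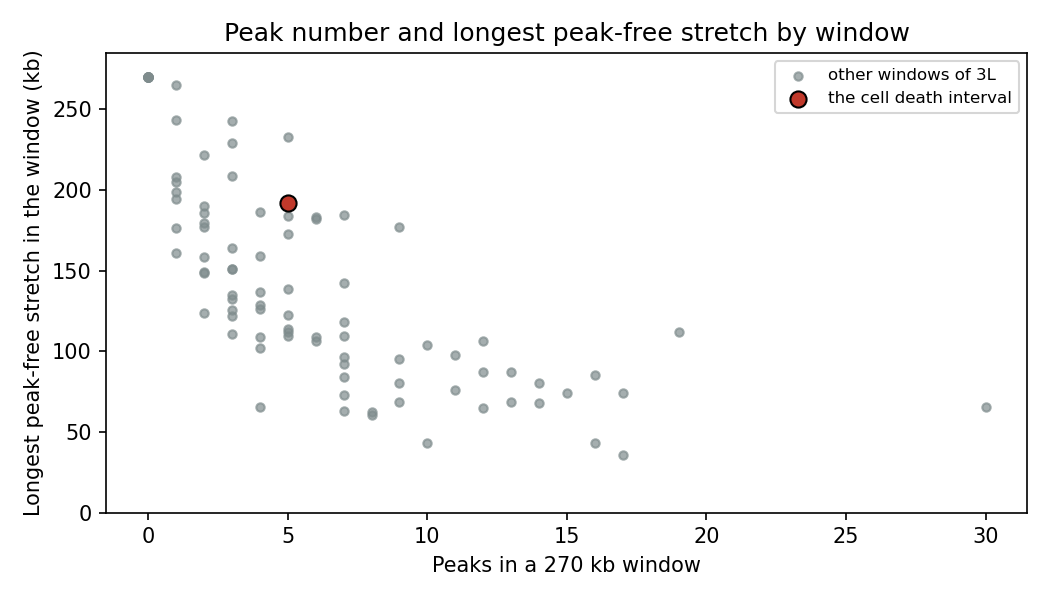
Longest peak-free stretch inside each 270 kb window of 3L, edges included (y axis, kb), against the number of peaks in the window (x axis). The cell death interval (red) has 5 peaks and a stretch of 192 kb, and 1 of the other 8 windows with 5 peaks lies higher, at 233 kb.

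Among themselves the 5 peaks ranged from near the lowest scores of the arm to above its upper quartile. Their median score was 11.15, with a range from 7.88 to 25.29, against a median of 13.0 and quartiles of 10.4 and 19.2 for the other 534 peaks of 3L. Their median width was 289 bp, with a range from 205 to 482 bp, against a median of 336 bp and quartiles of 257 and 472.5 bp. By score, 3 of the 5 were below the median of 3L, and by width also 3. The weakest of the 5 was the narrowest and the strongest the widest. Score and width did not order the others fully alike, since the peak at 15.24 was 289 bp wide and a peak at 11.15 was 464 bp wide. The score of 11.15 was given to 27 peaks of the list, 10 of them on 3L.

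The nearest neighbour of a member lay between 3.77 and 38.9 kb away, with a median of 5.72 kb, against a median of 4.37 kb for the rest of 3L. Another peak lay within 10 kb of 3 of the 5, or 60.0%, against 62.9% for the rest of the arm. With gaps of at most 5 kb counted as continuous, the longest run in the interval was 2 peaks, those at 15.24 and 11.15 that are 3.77 kb apart.

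**Figure D4:**
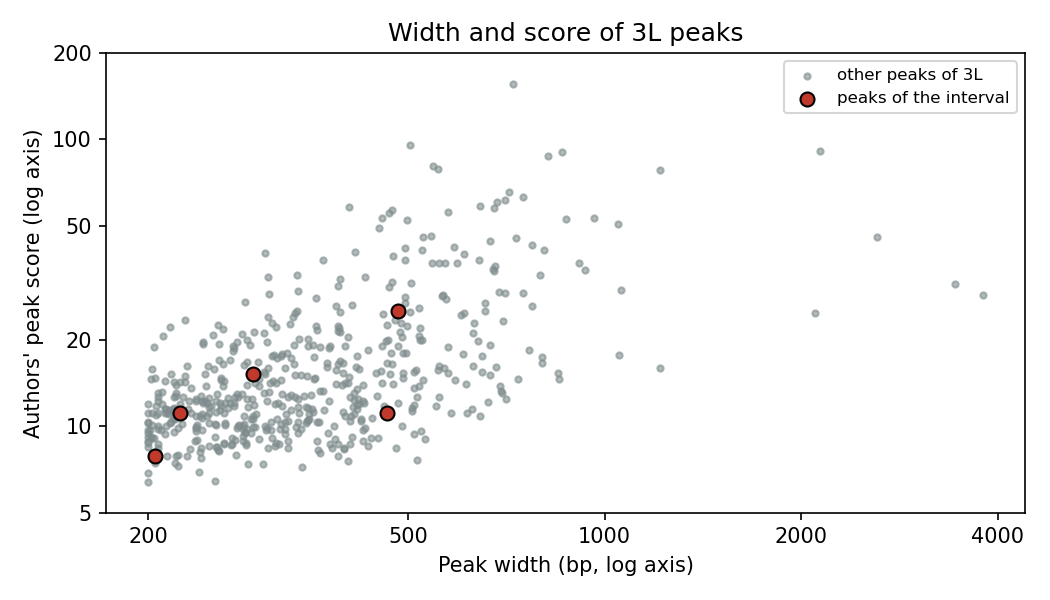
Score (y axis, log) against width (x axis in bp, log) for the 539 peaks of 3L, each point 1 peak. The 5 peaks of the interval (red) reach from 205 to 482 bp in width and from 7.88 to 25.29 in score, inside the cloud of the other 534 and well under the highest score of the arm, 156.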

How the data were processed

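The members, and the lists and windows used with them, were chosen with earlier results of these data known. Per the file headers, the deposited list is in GFF version 3 on FlyBase release 5 with MACS as its source. The build BDGP5, MACS2, BWA and CASAVA (1.7.0.2, 1.7.0.3) are named in the submitters' processing notes. Parameters, the control used and any pooling of replicates are not given in the sources used here. Each row of the deposited list gives the authors' positions, other than which the sole value is the authors' score, whose scale is not named; its use was kept to ranking, describing and filtering this list. The lowest start is 0, so 1 was added to starts. The extent of 3L was the end of its last peak, unknown bases included.

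Windows ran end to end from the interval in both directions, without partial windows. Python 3.11.15, numpy 2.4.6, pandas 2.3.3, scipy 1.17.1 and matplotlib 3.10.9 were used. The functions for counts, gaps, runs and ranks were tested on simulated data. No chance test was made. By the naming rule, each peak of the interval, the nearest outside and the genes of the cluster are named. A fixed list of other cell death genes, gene starts, motifs and sequences were not used here, for want of release 5 positions or of sequence tables.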

Additional observations from a re-analysis of the deposited data

How the results depend on the processing

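No paired analysis was possible because the list holds no value per library, and no replicate could be left out. The 5 peaks of the interval became 2 among the 1474 highest-scoring peaks and 1 among the 737, by construction of these sets. The share of windows with fewer peaks was 48.9% (95% exact binomial interval 38.2 to 59.7%, which takes windows as independent). As the windows tile the arm, that range measures no sampling error and served only to compare the alternatives. The share was 35.6% with the 1474, where 32 windows held fewer and 35 more. It was 46.7 to 52.2% under the other 7 alternatives: the 737, merged peaks, windows from position 1, sliding windows, windows of 5 arms, bases covered and summed score. The median score rose from 11.15 to 20.3 over the 2 peaks left with the 1474. The longest run, 2 peaks, became 1 when only gaps of at most 2 kb were bridged, and 3 at 10 kb. The peak-free stretch, looked at after the positions were known, was 386 kb with peaks merged, which could not change it. It was 524 kb, and ranked 4 of 238 and 12 of 100 on 3L, with the 1474 and with the 737. Moving the right edge by 30 kb was also added later. Not run were gene starts and motifs under peaks. Depth is unknown, so weak binding cannot be judged.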
